A study of Mus musculus with 4 samples.

Results

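The 7 globin genes Hba-a1, Hba-a2, Hba-x, Hbb-bs, Hbb-bt, Hbb-bh1 and Hbb-y and the haem synthesis gene Alas2 were followed through a single-cell RNA-seq library of the mouse tibia at postnatal day 6 (P6). They were chosen by name, and all 8 were found among the 31053 genes of the count table. The question was how far adult and embryonic globins were used in erythroid cells. It was also asked how much of the same transcripts was counted in skeletal cells. Proximal and distal pieces of both tibiae (2 bones) of 1 male mouse were digested together, cells with and without the reporter were loaded, and the 4 sequencing entries of the library were counted by the authors as 1 library. The mouse carried Col10a1Cre, which is active in hypertrophic chondrocytes (HCs), the reporter Rosa26-Tdtomato, and the alleles Irx3 +/Δ and Irx5 +/-, and is labelled an Irx3/5 heterozygous control. No wild-type mouse and no second mouse stood beside it, so no value here could be tested between animals, and the exact 95% intervals cover counting error only.

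Haemoglobin is a tetramer of α-like and β-like chains, each holding a haem. Primitive erythroid cells of the yolk sac use the embryonic chains ζ (Hba-x), βh1 (Hbb-bh1) and εy (Hbb-y), while definitive cells of the fetal liver and the marrow use the adult α pair (Hba-a1 and Hba-a2) and the adult β pair (Hbb-bs and Hbb-bt). Alas2 codes for the erythroid enzyme of the first and rate-limiting step of haem synthesis. In late erythroblasts the nucleus is lost and the reticulocyte keeps globin mRNA while most other transcripts are removed. Marrow erythroblasts mature in contact with macrophages, close to stromal cells and sinusoids.

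The α cluster lies on the plus strand of chromosome 11 (mm10, gene spans from GENCODE M21), with Hba-x at chr11:32276400-32278116, Hba-a1 at chr11:32283511-32284465 and Hba-a2 at chr11:32296489-32297298. The β cluster lies on the minus strand of chromosome 7, with Hbb-bt at chr7:103812524-103813996, Hbb-bs at chr7:103826534-103828096, Hbb-bh1 at chr7:103841637-103843164 and Hbb-y at chr7:103851749-103853216. Each of the 7 globin genes has 3 exons in its first listed transcript. Alas2, with 11 exons, lies at chrX:150547375-150570638 on the plus strand. RefSeq promoters of the GRCm38.p6 build were found for 7 of the 8 genes, and 120 bases before the RefSeq start are shown for an adult gene of each pair, for 2 embryonic genes and for Alas2, because the adult genes rose and fell together below. GENCODE places the start of several of these genes further upstream. Capitals mark the letters CACCC, the CCAAT box, the TATAA box and the GATA-type motif GATAA, read on either strand.
Hba-a2, chr11:32296372-32296491, plus strand: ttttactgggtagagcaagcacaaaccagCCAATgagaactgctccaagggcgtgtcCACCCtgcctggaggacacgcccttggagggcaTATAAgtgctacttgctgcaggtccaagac
Hbb-bs, chr7:103827929-103828048, minus strand: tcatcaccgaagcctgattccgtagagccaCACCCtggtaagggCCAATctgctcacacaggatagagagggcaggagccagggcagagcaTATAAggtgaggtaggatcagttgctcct
Hba-x, chr11:32276480-32276599, plus strand: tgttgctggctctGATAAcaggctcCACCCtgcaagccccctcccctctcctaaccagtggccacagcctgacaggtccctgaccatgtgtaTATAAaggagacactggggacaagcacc
Hbb-y, chr7:103853208-103853327, minus strand: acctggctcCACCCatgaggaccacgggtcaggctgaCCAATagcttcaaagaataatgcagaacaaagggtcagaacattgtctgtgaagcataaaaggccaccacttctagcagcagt
Alas2, chrX:150547297-150547416, plus strand: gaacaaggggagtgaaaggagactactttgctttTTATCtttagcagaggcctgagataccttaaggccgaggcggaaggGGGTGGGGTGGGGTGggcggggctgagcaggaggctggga
CACCC was found in 7 of the 7 promoters, CCAAT in 5, TATAA in 5 and GATAA in 2, where 31.3%, 22.1%, 12.4% and 10.7% of 27025 RefSeq promoters of the same length held them. The Alas2 promoter had neither CCAAT nor TATAA, unlike those of the adult globins, and had GATAA and CACCC on the other strand only. These matches are a description of the letters and not of bound sites.

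The adult genes of each pair were nearly identical in their coding sequences, and the α pair also after the stop codon, which limits the split of the α pair. The coding sequences of Hba-a1 and Hba-a2 (429 bases each) differed at 1 base, C381T, and those of Hbb-bs and Hbb-bt (444 bases each) at C417T, where positions are counted from the A of the start codon and the first base belongs to Hba-a1 or Hbb-bs. The 30 bases around each difference are shown with the differing base in capitals.
Hba-a1: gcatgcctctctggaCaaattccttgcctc
Hba-a2: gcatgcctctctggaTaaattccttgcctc
Hbb-bs: ggtggctggagtggcCgctgccctggctca
Hbb-bt: ggtggctggagtggcTgctgccctggctca
After the stop codon, Hba-a1 and Hba-a2 differed at 0 of 74 aligned bases, while Hbb-bs and Hbb-bt differed at 36 of 129. The α and β families were far apart, with 64.4% identity between the coding sequences of Hba-a1 and Hbb-bs. Counts of Hba-a1 against Hba-a2 are therefore uncertain. If reads shared by the pair were left uncounted, the summed α count and its share beside β would be too low as well, which was not tested. The embryonic genes were not near-identical to an adult gene in this way. The embryonic Hba-x shared 68.0% of its aligned coding bases with Hba-a1, and Hbb-y shared 74.3% with Hbb-bs.

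The table held 14181 barcodes with 500 to 85279 UMIs (molecular tags that mark single captured transcripts) and a median of 8235. Cells with at least 1600 genes and at most 10% mitochondrial UMIs numbered 8256 and were clustered into 29 groups without the 8 genes, so that the haemoglobin genes had no part in any class. Classes are called X-like from marker lists, as the marker genes and not the authors named them. Skeletal cells are the 3439 cells of the chondrocyte-like, hypertrophic chondrocyte-like, osteoblast lineage-like, marrow stromal-like and fibroblast-like classes. Levels are UMIs per 1000000 UMIs of a class (CPM). Since a UMI is 1 transcript of any length, levels of different genes can be set side by side without scaling by length.

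Over all barcodes the 8 genes took 9637484 UMIs, 6.09% of the library. Hbb-bs, with 5228749 UMIs, was the most abundant gene of the table, and Hba-a1 (1945726 UMIs) ranked 4, Hbb-bt (1337911 UMIs) ranked 8 and Hba-a2 (1104433 UMIs) ranked 10. Alas2 was far lower with 20533 UMIs. The embryonic genes were almost absent, with 81 UMIs of Hba-x, 39 of Hbb-y and 12 of Hbb-bh1. At least 1 globin UMI was found in 14077 barcodes (99.3%), so that presence alone marked no cell type.

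Most globin transcripts were outside the cells kept. Barcodes with under 1600 genes in which globins made up 50% or more of the UMIs were 7.99% of all barcodes (1133) and held 63.3% of the globin UMIs. Erythroid-like cells held 21.6% in 4.66% of barcodes. The minimum of 1600 genes removed 93.6% of the 1210 barcodes with globins at 50% or more. Skeletal cells held 3.06% of the globin UMIs in 79 cells with at least 100 of them each, and 0.277% in the 3360 others.

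**Figure D1:**
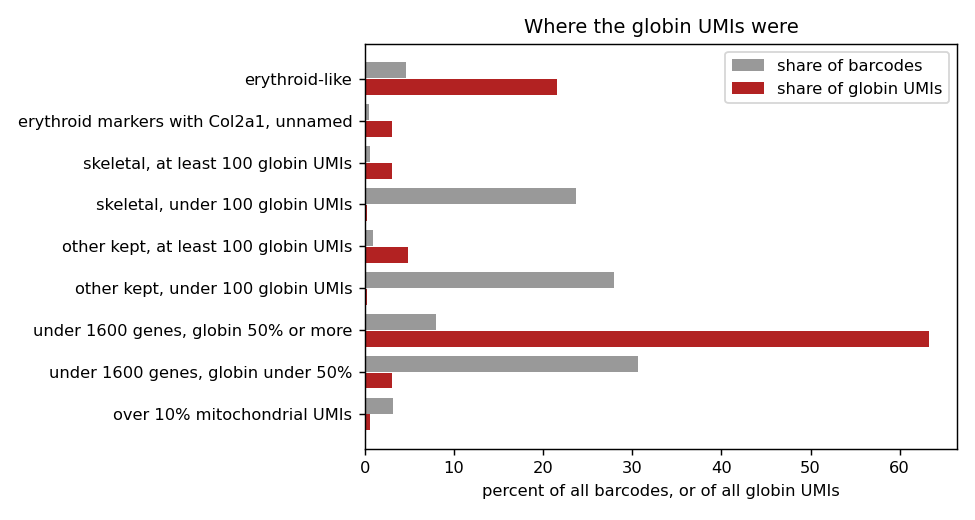
Horizontal bars give, for 9 groups of barcodes, the share of all barcodes (grey) and of all globin UMIs (red), in percent. Globin-rich barcodes under the gene minimum are 7.99% of barcodes and hold 63.3% of the globin UMIs, and the skeletal cells with under 100 globin UMIs are 23.7% of barcodes and hold 0.277%.

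2 clusters were called erythroid-like, and the adult globins separated them without having been used to form them. The larger, of 497 cells, had among its leading genes Slc4a1 (the red cell anion exchanger band 3), Hemgn, Ctse, Tspan33, Car2, Rhd, Mgst3, Slc25a37 and Cldn13, and all 15 erythroid markers found in the table stood at 10 CPM or more in it. Its cells held 217 to 15965 globin UMIs with a median of 3902, and globins and Alas2 made up 29.999% of its UMIs. The smaller, of 164 cells, was led by Car1, Pf4, Bex4, C1qtnf12, Stard10, Mns1, Ces2g, Abcb4, Mt2 and Sdsl, with 14 of the 15 erythroid markers at 10 CPM or more. Its leading genes hold 1 erythroid marker, the carbonic anhydrase gene Car1, and 1 megakaryocyte marker, Pf4, a tie that the mean log2 fold of the whole lists settled for the erythroid list. All 15 erythroid markers summed to 1949 CPM of the genes outside the 8, of which Car1 gave 531 CPM, the 7 megakaryocyte markers to 565 CPM and the 13 chondrocyte markers to 2413 CPM (2097 CPM in the Slc4a1-led cells). Its cells held 2 to 4273 globin UMIs with a median of 24.5, and the 8 genes made up 0.402% of its UMIs. The ranges of both clusters overlapped, since 34 of the 164 cells held at least 100 globin UMIs and 4 at least 1000. These 34 cells held 84.8% of the globin UMIs of the Car1-led cluster, and 76 cells held at most 20. Globins stood at 349 CPM in those 76, against 377 CPM in skeletal cells with at most 20 globin UMIs. Over the whole cluster they stood at 4013 CPM, against 4748 CPM in all skeletal cells. The summed levels, ratios and shares of globins given below for Car1-led cells are therefore mostly those of the 34 cells.

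Each adult gene was between 67.5 and 78.6 times higher in the Slc4a1-led cells than in the Car1-led cells. Hbb-bs stood at 166699.7 CPM (95% exact Poisson interval 166394 to 167005) in the Slc4a1-led cells and at 2153 CPM (2116 to 2191) in the Car1-led cells, a fold of 77.4. Hba-a1 stood at 62430.4 and 925 CPM, Hbb-bt at 46657 and 637 CPM, and Hba-a2 at 23438 and 298 CPM. Alas2 stood at 753 CPM (732 to 773) against 9.44 CPM (7.11 to 12.3), a fold of 79.7. Alas2 was found in 99.2% of the Slc4a1-led cells (median 10 UMIs) and in 20.1% of the Car1-led cells, and its ratio to globin UMIs was alike in both, at 2.51 (2.45 to 2.58) and 2.35 (1.77 to 3.06) per 1000 globin UMIs. Across both clusters the 8 genes made up 16.4% of the UMIs (16.394% to 16.435%), a value between 2 unlike clusters. With a minimum of 500 genes in place of 1600 it was 48.7%, with at most 5% mitochondrial UMIs 32.0%, and at a lower clustering resolution of 0.6 it was 30.3%. Under each of these changes the cluster led by Car1 was left unnamed, and so was outside the class. With the minimum of 500 genes the class also held a cluster of 411 cells with a median of 651 genes and globins at 75.6% of UMIs. The mean over cells was 24.8%.

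**Figure D2:**
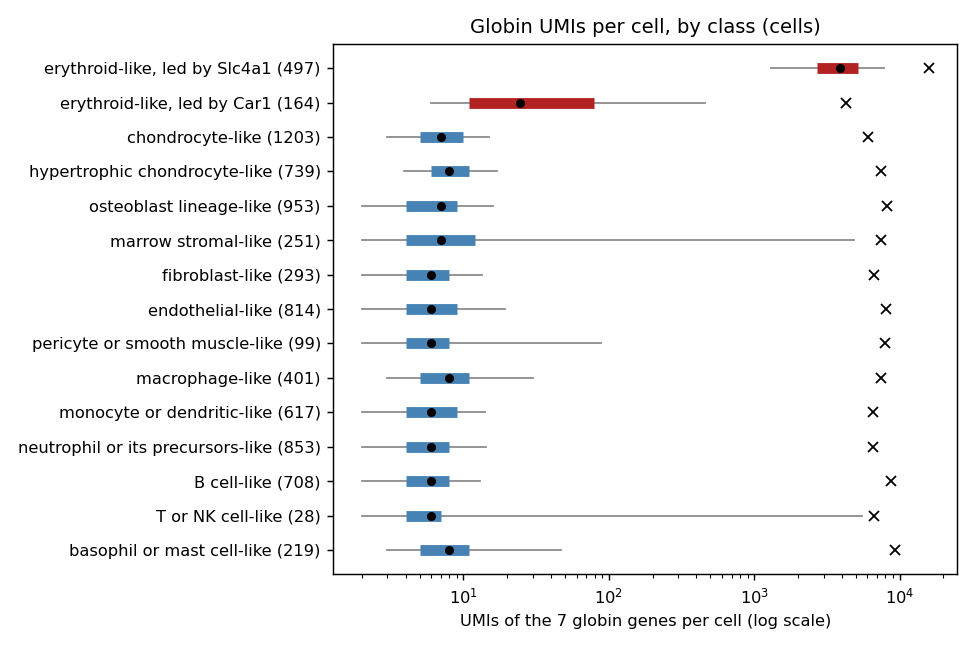
For each class (cell number in brackets) the dot is the median, the thick bar the 25th to 75th percentile, the thin line the 5th to 95th percentile and the cross the maximum of globin UMIs per cell, on a log axis. The Slc4a1-led cells have a median of 3902, the Car1-led cells of 24.5, and the 13 named non-erythroid classes have medians of 6 to 8 with maxima of up to 9314.

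Another cluster, of 69 cells, carried erythroid markers together with cartilage genes and was left unnamed. Tmcc2 and Xpo7 were among its leading genes, and its Col2a1 level (type II collagen of cartilage) passed the limit of 5000 CPM set for blood names. Its cells held 213 to 11083 globin UMIs with a median of 3925, close to the Slc4a1-led cells, at 28684 UMIs per cell against 12481. The doublet caller Scrublet marked 35 of the 69 cells (50.7%), against 28 of 497 Slc4a1-led cells (5.63%). Scrublet was run with the 8 genes kept, so its marks here and below can rest in part on globin counts. All 13 chondrocyte markers that were found stood at 10 CPM or more in the unnamed cluster. Their summed level was 84350.4 CPM of the genes outside the 8, against 2097 CPM in the Slc4a1-led cells. The part of doublets in its globin level was not tested.

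The adult set was nearly complete in erythroid-like cells. Of 2077651 globin UMIs, 96 were embryonic, a share of 0.00462% (exact binomial 95% interval 0.00374% to 0.00564%). It was 0.00178% with a minimum of 500 genes and 0.0105% as a mean over cells. Hba-x gave 68 of the 96, Hbb-y 25 and Hbb-bh1 3. These UMIs were not spread evenly over the cells. Of the 68 Hba-x UMIs, 58 (85.3%) were in 4 of the 14 cells with any, and of the 25 Hbb-y UMIs, 15 were in 1 of 9 cells. The 3 Hbb-bh1 UMIs were in 3 cells.

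Over all barcodes, 5 held at least 3 UMIs of Hba-x, 1 held at least 3 of Hbb-y and 1 at least 3 of Hbb-bh1. The 5 Hba-x barcodes held 24, 16, 9, 9 and 4 UMIs of it, and 0 of Hbb-y and Hbb-bh1. In the highest of them, 24 UMIs of Hba-x stood beside 277 of Hba-a1, 57 of Hba-a2 and 782 of Hbb-bs, with globins at 6.69% of its UMIs. The Hbb-y barcode held 15 UMIs of it beside 2015 of Hbb-bs, and the Hbb-bh1 barcode 4 beside 3505, so that each of the 7 was led by adult globins. Any UMI was found in 24 barcodes for Hba-x, 22 for Hbb-y and 9 for Hbb-bh1, of 14181. No barcode held UMIs of 2 different embryonic genes (0 for each pair). With so few barcodes an overlap of 0 does not show that the genes were used apart. The share of embryonic UMIs was 0.0101% (0.00761% to 0.0131%) in the 166 Slc4a1-led cells with most genes, 0.00245% (0.00147% to 0.00382%) in the 166 with fewest, and 0.000361% (0.000226% to 0.000547%) in globin-rich barcodes under 1600 genes. The first interval overlapped neither of the others. The sum joined genes that went opposite ways in the Slc4a1-led cells. From most genes through the 165 between to fewest, Hba-x had 52, 14 and 0 UMIs and Hbb-y 2, 3 and 19. Most embryonic UMIs were in a few cells, so the intervals, which treat UMIs as independent, are too narrow.

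**Figure D3:**
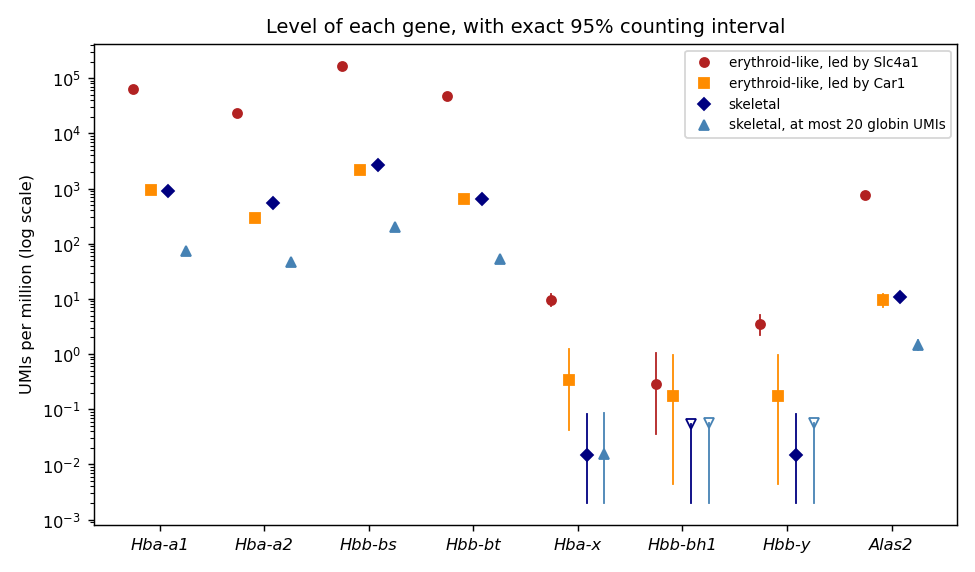
Points give the level of each gene in CPM on a log axis in the Slc4a1-led and Car1-led erythroid-like cells, in all skeletal cells and in skeletal cells with at most 20 globin UMIs, with the exact 95% Poisson interval as a vertical line; open triangles mark the upper limit where no UMI was found, and lines that reach below the scale are cut there. The 4 adult globins and Alas2 are lower in the last group than in the first, but do not drop at each step. Hbb-bs stood at 2153 CPM in the Car1-led and 2645 CPM in all skeletal cells, and Hba-a1 at 925 and 909 CPM. The embryonic genes lie under 10 CPM in each group.

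The mix of adult globins changed along the erythroid barcodes. Hba-a1 made up 75.6% (74.6% to 76.6%) of Hba-a1 and Hba-a2 UMIs in the Car1-led cells. It made up 76.2% (76.0% to 76.4%) in the 166 Slc4a1-led cells with most genes, 72.2% in the 165 between and 70.7% (70.5% to 70.9%) in the 166 with fewest. In barcodes under 1600 genes it was 70.0% where globins made up 20 to 50% of UMIs, 64.0% at 50 to 80%, 58.6% at 80 to 90% and 57.1% (57.0% to 57.3%) at 90% or more. The 400 barcodes with globins at 1 to 20%, which hold few globin UMIs each (median 30), had 70.5%. The ratio of Hba-a1 to Hba-a2 UMIs thus went from 3.20 to 1.33. As shown by their sequences, these genes are nearly identical, and whether the split of shared reads moved with the ratio was not tested.

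The balance of α and β did not move in 1 direction along these groups. The α share of adult globin UMIs was 30.5% (29.9% to 31.1%) in the Car1-led cells and 28.7% (28.6% to 28.8%) in the Slc4a1-led cells. In barcodes under 1600 genes it was 37.8% (37.2% to 38.4%) with globins at 1 to 20%, 28.6% at 20 to 50%, 30.9% at 50 to 80%, 35.6% at 80 to 90% and 36.0% (35.9% to 36.1%) at 90% or more. More β than α transcripts were thus counted in each group, with the limit on the summed α count given above. Hbb-bs made up 78.1% of the adult β UMIs in the Slc4a1-led cells and 80.1% at 90% globin or more, a narrower range than that of the α pair.

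Alas2 and the other erythroid transcripts went different ways along these groups, depending on whether they were set against globins or against the remaining genes. There were 2.72 (2.58 to 2.86) Alas2 UMIs per 1000 globin UMIs in the 166 Slc4a1-led cells with most genes, 2.44 (2.33 to 2.55) in the 166 with fewest, 3.02 (2.81 to 3.24) in barcodes under 1600 genes at 20 to 50% globin, 2.09 (2.04 to 2.14) at 50 to 80% globin and 1.57 (1.503 to 1.638) at 90% or more. The 15 erythroid markers, none of them a haemoglobin gene, summed to 39.9 UMIs per 1000 globin UMIs in the first of these groups, 21.6 with fewest genes, 25.5 at 20 to 50% globin, 13.6 at 50 to 80% and 1.13 at 90% or more. The 400 barcodes at 1 to 20% globin had higher ratios than each of these, with 6.80 for Alas2 and 88.9 for the markers. Set against UMIs outside the 8 genes, Alas2 went the other way, from 560 CPM of the other genes in the first group to 19648 CPM in the last, where a barcode held a median of 585 such UMIs. On that scale the markers stood at 8231 CPM in the first group, 18858 CPM with fewest genes, 27913 CPM at 50 to 80% globin and 14184 CPM at 90% or more, and so did not fall from first to last. The barcodes at 90% globin or more had a median of 300 genes and 8103 UMIs. These groups were cut by globin share and gene number, so their globin levels and any ratio to globin UMIs are in part fixed by the cut and are given as a description.

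**Figure D4:**
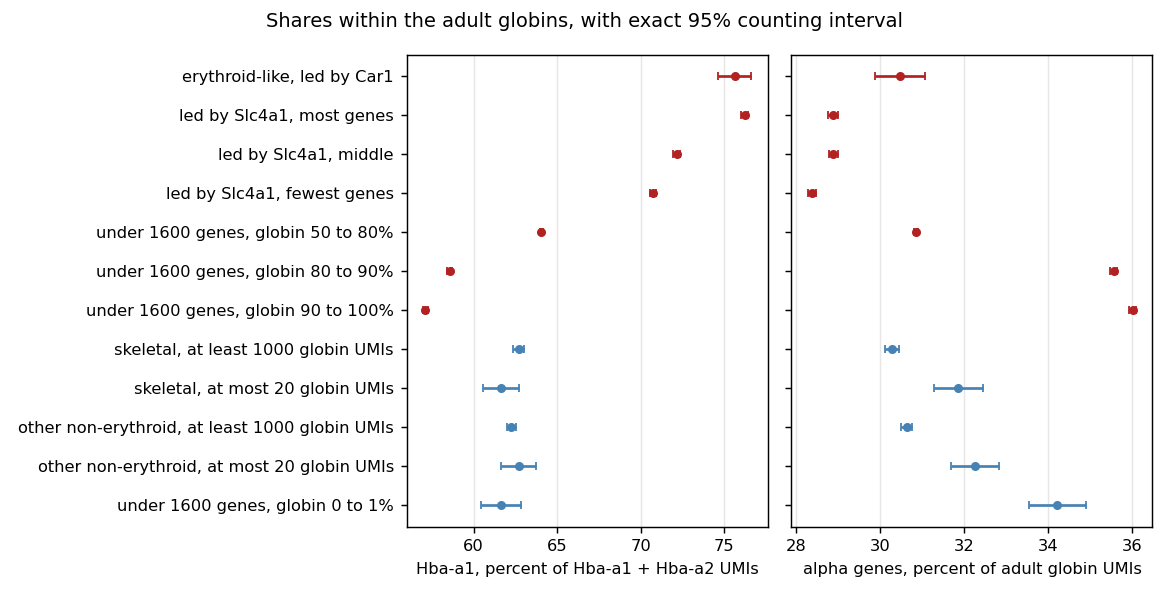
The left panel gives Hba-a1 as a percent of Hba-a1 and Hba-a2 UMIs and the right panel both α genes as a percent of adult globin UMIs, with exact 95% intervals; erythroid-like cells and globin-rich barcodes are red, other barcodes blue. Hba-a1 drops from 76.2% to 57.1% down the red points, and the blue points lie between 61.6% and 62.7%.

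Genes of the haem and red cell pathways were set beside the members. The erythroid-like classes were formed from these same genes, so the counts are a description. Among 8755 genes that reached 10 CPM in one group or the other (the 8 genes left out of the total), 26.4% were at least 2-fold higher and 28.7% at least 2-fold lower in erythroid-like than in skeletal cells, with a median log2 ratio of 0.21 (1 added to each level). Of 14 haem synthesis genes other than Alas2, 12 were at least 2-fold higher and 0 lower, with a median of 3.95. Tspo2, a translocator protein gene of erythroid cells, had a log2 ratio of 5.73, and the porphyrin synthesis enzyme gene Cpox had 4.65. Clpx, which codes for a mitochondrial unfoldase, had 0.78, and Alas1, the housekeeping relative of Alas2, stood at 8.67 CPM in erythroid-like and 13.8 CPM in skeletal cells (log2 ratio -0.62).

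Of 16 iron genes, 9 were at least 2-fold higher and 1 lower, with a median of 1.27. The mitochondrial iron importer Slc25a37 had 5.01, the transferrin receptor Tfrc 3.95 and Glrx5, of iron-sulphur cluster assembly, 3.31. Trf, the gene of transferrin itself, had -2.61, and the iron-responsive protein gene Aco1 -0.21. Of 15 tested regulators of the globin genes, 13 were at least 2-fold higher and 0 lower, with a median of 3.12, led by Klf1 (6.32), Lmo2 (5.83) and Gata1 (5.82), with Igf2bp3 (0.92) and Chd4 (0.75) lowest. Klf1 and Gata1, like Tspo2 above and Rhag, Car1, Epor, Slc4a1 and Epb42 below, also served as markers of the class. All 15 red cell membrane genes were at least 2-fold higher, from Cd47 (2.67) and Epb41 (3.14) to Icam4 (6.13) and Rhag (6.43). Of 12 tested genes of terminal maturation 9 were higher and 0 lower, with Car2 (6.78), Blvrb (4.91) and Ube2l6 (4.38) at the top and the mitophagy receptor gene Bnip3l (0.39) and Xpo7 (0.52) at the bottom.

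Of 8 tested progenitor genes, 6 were higher and 2 lower, with Car1 (7.57), the erythropoietin receptor Epor (5.64) and Ikzf1 (4.25) at the top and Cd34 (-1.71) and Myc (-1.42) at the bottom. Of 7 tested genes of haem and haemoglobin clearance, 3 were higher and 3 lower. Lrp1, the receptor for haemopexin-bound haem, had -4.36 and the haem oxygenase gene Hmox1 -3.70, while the haem transporter Slc48a1 had 1.54, the iron exporter Slc40a1 1.16 and Blvra 1.09. Among 6 further globin genes in the table, 1 was tested. Hbq1b, a θ-globin gene of the α cluster, was counted 157 times in erythroid-like and 11 times in skeletal cells (log2 ratio 3.76).

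Between the Slc4a1-led and the Car1-led cells, 14.7% of 7391 genes were at least 2-fold higher in the first and 23.4% at least 2-fold lower, with a median log2 ratio of -0.28. Haem synthesis genes were higher in 12 of 13 tested, with Fech (ferrochelatase, the last step) at 3.06, Ppox at 2.48, Tspo2 at 1.46 and Clpx at 0.03. Membrane genes were higher in 15 of 15, from Cd47 (1.15) and Xk (1.25) to Epb42 (4.80) and Slc4a1 (6.56). Terminal maturation genes were higher in 11 of 12, with Ube2l6 (3.71), Xpo7 (2.87) and Bpgm (2.58) at the top and Bnip3l (1.42) and Cat (0.57) at the bottom. Of 15 iron genes 5 were higher and 1 lower, led by Slc25a37 (5.44), Ncoa4 (2.18) and Tfrc (1.76), with Steap3 (-0.35) and Aco1 (-1.01) lowest.

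Regulators of the globin genes and of their translation were split. Of 15 tested, 8 were higher and 3 lower in the Slc4a1-led cells, with a median of 1.70. Sox6 (4.02), Nfe2 (2.76) and Eif2ak1 (2.30), the kinase gene that couples haem to globin translation, were highest. Bcl11a, a repressor of embryonic and fetal globins, had -2.09, from 38.3 CPM in the Slc4a1-led against 167 CPM in the Car1-led cells, and Igf2bp3, an RNA-binding protein gene of fetal cells, had -1.83. Progenitor genes were split, with 1 of 7 higher and 2 lower, where Kit had -3.70 and Myc -2.13 and the replication genes Pcna and Mcm5 had 1.73 and 0.93, with Epor at 0.83. Of 4 tested clearance genes, 0 were higher and 1 lower, with Flvcr1, the haem exporter, at -1.98, Slc40a1 at -0.31, Blvra at 0.39 and Slc48a1 at 0.85. Hbq1b was counted 155 times in the Slc4a1-led and 2 times in the Car1-led cells.

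Among the genes whose level over the 29 clusters was most like that of Hbb-bs, of 12496 genes and apart from the members, were Slc4a1 (Pearson r of log2 levels 0.96), Trim10 and Slfn14 (0.94 each), Slc25a37 (0.92), Tmod1 and Sowaha (0.89 each) and Kel (0.87). For Alas2 they included Slc4a1 (0.97), Trim10 (0.96) and Slfn14 (0.94), and Alas2 itself had 0.98 with Hbb-bs. The clusters share 1 library and differ in depth. Slc4a1 stood at 2006 CPM in the Slc4a1-led cluster and at most at 408 CPM outside the erythroid-like clusters and the unnamed one with Col2a1, where Hbb-bs reached at most 44422 CPM.

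In skeletal cells the 8 genes summed to 4759 CPM (4743 to 4776), but this level was not that of the typical cell. The median skeletal cell held 7 globin UMIs among 17811, and the counts ran from 0 to 8234. Cells with 0 globin UMIs numbered 12, those with 1 to 4 were 699, with 5 to 9 were 1790 and with 10 to 20 were 795, together 3296 of 3439 cells. A further 64 cells held 21 to 99, 16 cells at least 100 but under 1000, and 63 cells 1000 or more. The 79 cells with at least 100 globin UMIs (2.30%, exact binomial interval 1.82% to 2.85%) held 91.7% of the globin UMIs of skeletal cells. The limits of 20 and 100 UMIs were chosen after the counts were seen, and the level was 379 CPM in the 3296 cells at or under 20 UMIs. It was 809 CPM in skeletal cells without a UMI of an erythroid marker, 8714 CPM with at most 5% mitochondrial UMIs and 9335 CPM when 3000 variable genes were used for clustering, and why the last 2 were higher was not tested.

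The low count was much the same in every class. Among the 13 named non-erythroid classes the median globin count per cell was 6 to 8 UMIs, at median depths from 5522.5 UMIs (T or NK cell-like) to 28069 UMIs (hypertrophic chondrocyte-like). Over cells with at most 20 globin UMIs the mean ran from 5.24 in T or NK cell-like to 8.56 in hypertrophic chondrocyte-like cells. Among cells with 8000 to 12000 UMIs outside the 8 genes and at most 20 globin UMIs, the means ran from 5.66 (5.27 to 6.07) in B cell-like to 6.81 (6.41 to 7.22) in monocyte or dendritic-like cells, and those of osteoblast lineage-like (6.05) and chondrocyte-like (6.39) cells lay between. Of 11 classes with enough cells there, neighbours in this order overlapped in their intervals, and the ends did not.

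Deeper skeletal cells held somewhat more globin UMIs. When all 3439 were split into 4 groups by UMIs outside the 8 genes, with no limit on globin UMIs, the median count was 6 in the shallowest and 9.5 in the deepest group, a ratio of 1.58 at 3.64 times the median depth, and 26 to 44 cells of each group held more than 20. When the 3296 cells of low count were split in the same way, the mean was 5.79 (5.63 to 5.96), 6.69, 7.37 and 9.58 (9.37 to 9.79) globin UMIs. Their level was 678 CPM in the shallowest and 285 CPM in the deepest group, a comparison that the limit of 20 UMIs itself bounds. On the CPM scale shallow classes stood higher, with 803 CPM in T or NK cell-like and 296 CPM in hypertrophic chondrocyte-like cells with at most 20 globin UMIs.

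Shares of cells with a UMI showed the same thing gene by gene. Hbb-bs was found in 97.2% of skeletal cells (median depth 17811), in 95.8% of other named blood cells (median depth 12031.5) and in 100% of erythroid-like cells (median depth 14247). After each cell was thinned to 5000 UMIs, with 30 shallower skeletal, 176 blood and 3 erythroid-like cells left out, the shares were 68.6%, 73.2% and 94.7%. The skeletal share lay above that of the other blood cells before thinning and below it after. Hba-a1 was found in 75.2%, Hbb-bt in 64.6% and Hba-a2 in 60.3% of skeletal cells, with medians of 1 UMI each. Alas2 was found in 5.18% of skeletal cells, and in 2.79% (2.26% to 3.41%) of those with at most 20 globin UMIs. Hba-x and Hbb-y were each found in 1 skeletal cell with 1 UMI, and Hbb-bh1 in 0 of 3439, which allows a share of up to 0.0872%.

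The split of the α pair was close in cells of low count inside and outside the skeletal classes. Hba-a1 made up 61.6% (60.5% to 62.7%) of the α UMIs in skeletal cells with at most 20 globin UMIs, 62.7% (61.6% to 63.7%) in other non-erythroid cells at or under that count and 61.6% (60.4% to 62.8%) in barcodes under 1600 genes with globins under 1%. The 3 intervals overlapped each other, and none overlapped that of the Slc4a1-led cells (72.7%, 72.6% to 72.8%). Over all 1133 globin-rich barcodes under 1600 genes the value was 61.0% (60.9% to 61.1%). The α share was 31.9% (31.3% to 32.5%), 32.3% (31.7% to 32.8%) and 34.2% (33.5% to 34.9%) in the same 3 groups, against 28.7% in the Slc4a1-led cells and 33.1% in the globin-rich barcodes. The first 2 intervals overlapped each other and the last overlapped neither. By both measures, of which the α split is uncertain, the low counts were nearer to the globin-rich barcodes with few genes than to the Slc4a1-led cells. The marker and Alas2 ratios that follow lay above those of both groups.

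Other erythroid transcripts were higher beside the globins in the low counts than in the Slc4a1-led cells and the globin-rich barcodes. The 15 erythroid markers gave 54.2 (51.3 to 57.2) UMIs per 1000 globin UMIs in skeletal cells of low count and 56.6 (53.7 to 59.6) in other non-erythroid cells of low count, against 27.7 (27.5 to 27.9) in the Slc4a1-led cells and 8.76 in globin-rich barcodes under 1600 genes. Alas2 gave 3.88 (3.13 to 4.74) and 3.86 (3.14 to 4.70) per 1000 globin UMIs there, against 2.51 and 1.92. Both ratios lay above those of the 2 groups set beside them. The Car1-led cells had 484 (475 to 493) marker UMIs and 2.35 (1.77 to 3.06) Alas2 UMIs per 1000 globin UMIs. Most globin UMIs of that cluster were in 34 cells, while its cells with at most 20 held a median of 46 marker UMIs. The groups of low count were cut by globin UMIs, so their ratios to globin UMIs are in part fixed by the cut. Over all skeletal cells Alas2 gave 2306 (2142 to 2478) per 1000000 globin UMIs as a sum and 4646 as a mean over cells, which weights the many cells of low count. At least 1 erythroid marker UMI was found in 997 of the 3296 skeletal cells of low count (30.2%), so a marker UMI alone did not mark an erythroid cell either.

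The same pattern of a few UMIs in nearly every cell was seen for genes of other cell types. Erythroid-like cells held a median of 12 UMIs and B cell-like cells of 11 UMIs summed over Col1a1, Col1a2, Col2a1, Sparc and Bglap, genes of bone and cartilage matrix, against 847 in skeletal cells. Col2a1 alone was found in 99.4% of erythroid-like cells with a median of 6 UMIs. The neutrophil granule genes S100a8, S100a9, Ngp, Camp and Ltf summed to a median of 2 UMIs in skeletal, erythroid-like and B cell-like cells alike. RNA outside cells was not measured directly, since barcodes under 500 UMIs were not analysed here, and its part in the low counts was not tested. Whether skeletal cells made any globin transcripts themselves, at low or high counts, was not tested either.

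The cells with many globin UMIs were unevenly shared among the skeletal classes. At least 100 globin UMIs were found in 34 of 251 marrow stromal-like cells (13.5%, 9.57% to 18.4%), which express the stromal genes Cxcl12, Adipoq and Lpl. The shares were 2.41% (23 of 953) in osteoblast lineage-like, 1.71% (5 of 293) in fibroblast-like, 1.35% (10 of 739) in hypertrophic chondrocyte-like and 0.582% (7 of 1203, 0.234% to 1.20%) in chondrocyte-like cells. The interval of the marrow stromal-like class overlapped none of the other 4. The unnamed cluster of 69 cells with chondrocyte markers, all with at least 100 globin UMIs, was outside these shares. With those cells the chondrocyte-like share would be higher, so the order of the classes depends on how they were named. Scrublet marked 11 of these 34 marrow stromal-like cells and 2 of the 45 in the other classes. Among cells it did not mark, the shares were 9.66% (23 of 238, 6.23% to 14.1%) in marrow stromal-like and 0.607% to 2.43% in the other classes, whose highest upper bound was 3.66%. In the classes that are not skeletal, the shares were 1.13% in B cell-like and monocyte or dendritic-like cells and 3.05% in neutrophil-like cells or their precursors. They were 3.49% in macrophage-like, 3.93% in endothelial-like, 4.11% in basophil or mast cell-like and 5.05% (5 of 99) in pericyte or smooth muscle-like cells. T or NK cell-like cells had 3 of 28, an interval (2.27% to 28.2%) too wide to place. The macrophage-like cluster also had Acp5, Atp6v0d2 and Ctsk, of the osteoclast list, among its leading genes.

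**Figure D5:**
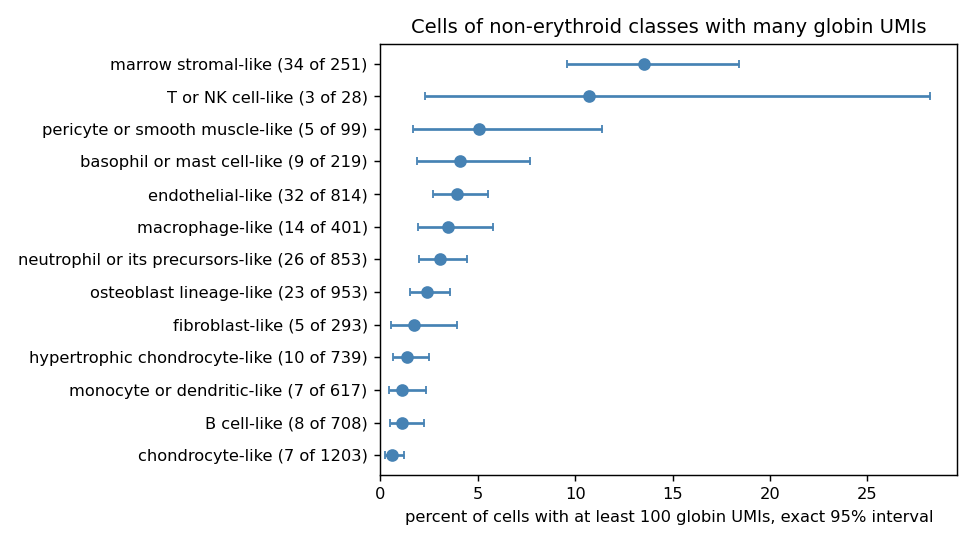
Points give the percent of cells with at least 100 globin UMIs in each named non-erythroid class, with the exact 95% binomial interval; the numbers of such cells and of all cells stand beside each name. Marrow stromal-like cells (13.5%) lie above the 4 other skeletal classes, which run from 0.582% to 2.41%. The unnamed cluster of 69 cells with Col2a1 is not drawn.

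Within the classes, clusters of 1 name also differed. The osteoblast lineage-like cluster led by Bglap3, Bglap and Bglap2, genes of mature osteoblasts, had 19 such cells of 432 (4.398%, 2.67% to 6.78%), and that led by Tnc, Wif1 and Mmp13 had 4 of 521 (0.768%, 0.210% to 1.95%). The fibroblast-like cluster led by Mfap5, Tnmd and Igfbp6, with tendon genes, had 0 of 173, which allows a share of up to 1.73%, and that led by Aspn, Mfap4 and Postn had 5 of 120 (4.17%, 1.37% to 9.46%). The cells were placed in clusters with all their transcripts other than the 8 genes, so erythroid transcripts in a cell could also move it between clusters, as in the unnamed cluster above.

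These cells carried erythroid transcripts as well as globins. Among the 79 skeletal cells, Hbb-bs stood at 86176 CPM (85760 to 86594) and Alas2 at 331 CPM, and Alas2 was found in 75 of them and an erythroid marker in 75. The 63 cells with at least 1000 globin UMIs had a median of 4457, close to the 3902 of the Slc4a1-led cells. The 79 cells held a median of 16181 UMIs outside the 8 genes against 17710 in cells of low count. Within each of the 5 classes, by contrast, the cells with many globin UMIs had the higher median, with 20401 against 13969 in osteoblast lineage-like, 13885 against 10010.0 in marrow stromal-like, 32344.5 against 27814 in hypertrophic chondrocyte-like, 10296 against 9164.5 in fibroblast-like and 18919 against 18647.5 in chondrocyte-like cells. Scrublet, which was run with the globins kept, marked 13 of the 79 and 104 of the 3296. Hba-a1 made up 62.7% (62.4% to 63.0%) of the α UMIs in the 63 cells, the α share was 30.3% (30.1% to 30.5%), Alas2 gave 2.08 (1.92 to 2.25) and the 15 erythroid markers 11.5 (11.1 to 11.9) per 1000 globin UMIs. Barcodes under 1600 genes with globins at 50 to 80% had 64.0%, 30.9%, 2.09 and 13.6 for the same 4 measures. All 1133 globin-rich barcodes under 1600 genes had 61.0%, 33.1%, 1.92 and 8.76, and those at 90% globin or more 57.1%, 36.0%, 1.57 and 1.13. The Slc4a1-led cells had 72.7%, 28.7%, 2.51 and 27.7. The 102 other non-erythroid cells with at least 1000 globin UMIs had 62.3%, 30.6%, 2.21 and 11.3. The part of 2 cells in 1 droplet in these counts was not tested.

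The cells over the low count moved the rank of haemoglobin in a class. Hbb-bs ranked 1 of 15529 genes with a UMI in marrow stromal-like cells at 26319 CPM, and ranked 432 in the 205 of these cells with at most 20 globin UMIs, at 339 CPM. In osteoblast lineage-like cells it ranked 34 at 3408 CPM and 560 at 223 CPM without the cells over that count. In chondrocyte-like cells it ranked 282 at 432 CPM and 614 at 201 CPM. Hbb-bs was thus among the 1000 most abundant genes of each skeletal class even in cells of low count, and a sum over cells raised it to the first place in 1 class.

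The reporter did not set the low count apart. Cells with more than 14 UMIs of WPRE, a sequence of the reporter transgene, are HC-derived by the limit that the study used. The study chose this limit to match its own measured frequency of reporter-positive HCs, and states that it also lies at a saddle point of the WPRE counts. That frequency was well over that of the hypertrophic chondrocyte-like class here, but the sets of cells are not alike. The study kept pre-hypertrophic cells apart, whereas the class here joins a Col10a1-led cluster of 262 cells and 1 of 477 led by Il17b. Most cells of that class were at or under the limit, and why was not tested. In osteoblast lineage-like cells the median was 7 globin UMIs in 244 HC-derived cells (median depth 16691.5) and 6 in 709 others (13549), and at least 100 were found in 2.87% (1.16% to 5.82%) and 2.26% (1.30% to 3.64%). In hypertrophic chondrocyte-like cells the medians were 9 in 103 cells with more than 14 WPRE UMIs (depth 35918) and 8 in 636 others (27487.5), with 2 and 8 cells at 100 or more. The intervals of the shares overlapped in both classes, which does not show that the cells are alike.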

How the data were processed

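The deposited values are UMI counts per gene and barcode of 1 library, not normalized. Per the labels the authors ran Cell Ranger 3.1.0 against mm10 and also used Seurat 3. No source read here names the annotation release. A count matrix of 98 exogenous sequences was joined by barcode for WPRE. Of 31053 gene identifiers, 30934 matched GENCODE M21. Other columns of per-sample values were not present.

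Barcodes with at least 1600 genes (the study's minimum), at most 10% mitochondrial and at most 50% ribosomal protein UMIs were kept. Cells were clustered with scanpy 1.11.5 and igraph 0.11.9 in Python 3.11.15. Intervals came from scipy 1.17.1, tables from pandas 2.3.3, sequences from biopython 1.88 and plots from matplotlib 3.10.9. The 8 genes were removed, each cell was scaled to 10000 and logged, and 2000 variable genes, 30 principal components and 20 neighbours were used for Leiden clustering at resolution 1.0 (seed 1). A cluster took the marker list, of 17, with most genes among its top 10 by fold (10 CPM added), with ties (as in the Car1-led cluster) and clusters without such a gene settled by the mean log2 fold of the list, and needed at least 3 markers at 10 CPM. The collagens limited the names: Col2a1 had to reach 5000 CPM and exceed Col1a1 in chondrocytes and could not exceed it in osteoblasts, both stayed under 5000 CPM in blood cells, and Ptprc stayed under 50 CPM in skeletal cells. This rule was set after the clusters were seen and left the clusters of 127 and 69 cells unnamed. A cluster of 182 cells was unnamed because no list led. A cluster of 39 cells was unnamed because its markers were lower than in other cells. Together the 4 unnamed clusters held 417 cells. The rebuilt names may depart from the study's own. Scrublet (expected rate 10%) marked 588 barcodes (4.15%), which were kept, since no source used here says that doublets were removed, and left out in an alternative. It was run over all barcodes with the 8 genes included.

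With 1 library there was no test. Sums carry exact Poisson and shares exact Clopper-Pearson intervals at 95%, which cover counting error only. A count of 0 was given an upper limit of 3 counts. The statistics were checked on simulated data. Named genes were the 8 members, the 3 highest and 2 lowest log2 ratios of each pathway list (CPM with the 8 genes left out of the total, 1 added), the 10 genes most like Hbb-bs and 5 most like Alas2, the 10 leading genes of the erythroid-like clusters and the matrix and neutrophil genes. The members, marker lists and pathway lists were chosen with earlier results of these data known. The globin chaperone gene Ahsp was not analysed here. Some genes that this rule names are not reported here. Alternatives varied the limits on cells, the clustering, doublets, the removal of the 8 genes, the mean over cells and the skeletal cells used.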

Additional observations from a re-analysis of the deposited data

How the results depend on the processing

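The 6 summary values were recomputed under up to 12 alternatives, which gave 69 values, of which 32 stayed within the counting interval of the value reported and 37 did not. No value has a test. The haemoglobin gene share of erythroid-like cells (16.4%) was 48.7% with a minimum of 500 genes, 11.9% with 2000 genes, 32.0% and 16.8% with at most 5% and 20% mitochondrial UMIs, 30.3% and 16.386589% at Leiden resolutions of 0.6 and 1.5, 16.6% without Scrublet doublets, 16.9% with the 8 genes kept for clustering, 24.8% as a mean over cells and 16.1% with the unnamed cluster that also holds Col2a1. The embryonic share (0.00462%) was 0.00178% and 0.00575% with minimums of 500 and 2000 genes and 0.0105% as a mean over cells. The α share of erythroid-like cells (28.7%) was 30.6% and 28.9% with those minimums, 28.8% without doublets and 30.3% as a mean over cells.

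The level in skeletal cells (4759 CPM) was 5323 and 4918 CPM with those minimums, 8714 and 4734 CPM with at most 5% and 20% mitochondrial UMIs, 5127 and 5081 CPM at resolutions of 0.6 and 1.5, 9335 CPM with 3000 variable genes, 6508 CPM without doublets, 4684 CPM as a mean over cells, 809 CPM without cells that had an erythroid marker and 379 CPM in cells with at most 20 globin UMIs. The α share of skeletal cells (30.5%) was 30.9% with a minimum of 500 genes, 30.2% with at most 5% mitochondrial UMIs, 29.9% with 3000 variable genes, 31.9% as a mean over cells, 33.7% without cells that had an erythroid marker and 31.9% at or under 20 globin UMIs. Alas2 per 1000000 globin UMIs (2306) was 4646, 2680.03 and 3877 under the last 3. The alternatives with at most 20 globin UMIs and with the unnamed cluster were chosen after seeing the data. The median skeletal cell held 7 globin UMIs under every one of the 9 changes to cells or clustering. No paired analysis was possible because the series holds 1 library of 1 mouse. With 3000 variable genes, and without Scrublet doublets, the erythroid marker list led in no unnamed cluster. Where the remaining cells of the unnamed cluster with Col2a1 were then placed was not tested. Where values moved, the cause was not tested. Skeletal cells held 2 embryonic UMIs in all, too few to compare embryonic genes there.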
